A study of Mus musculus with 19 samples.

Results

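The comparison is between the 2 sizes of dendrite pool at the ends of the range collected from C57BL/6 mice. Its members were chosen by sample title: 5 arrays of pools of 400 dendrites and 4 arrays of pools of 100 dendrites, 9 of the 19 arrays in the series. Each difference is given as 400 minus 100 on the log2 scale, so that a positive value is higher in the larger pools. All pools came from C57BL/6 embryos (written C57/BL6 in the strain label) at embryonic day 18. Their hippocampal neurons, labelled as pyramidal, were grown for 14 days in dispersed primary culture without treatment. Neurites were cut from many neurons with a glass pipette and pooled, and the RNA passed through successive rounds of antisense RNA amplification before labelling. Axons could not be told from dendrites by shape at dissection, so a minor part of each pool may be axonal, and RNA of the soma may also be present. Titles number the pools as biological replicates, and no source used here gives their culture or litter of origin, so p-values measure the spread between these pools. Another 5 arrays of C57BL/6 pools of 200 dendrites and 4 Balb/c arrays of 400 and 100 dendrites are used beside them.

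Dendrites hold messenger RNAs that are carried out of the soma in granules by RNA-binding proteins and motors, and translated near synapses by local ribosomes. RNAs for ribosomal proteins, mitochondrial respiration, the cytoskeleton and synaptic scaffolds are typically found there. A single dendrite carries too little RNA for an array, which is why dendrites are pooled and amplified, and a smaller pool holds fewer copies of each scarce RNA at the first amplification step. The comparison asks whether pool size itself was followed by different measured expression. In pooled material, fewer cells of a type and less RNA per cell cannot be told apart.

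The values were the deposited log2 expression values of Affymetrix mouse genome arrays, and a gene was given the median of its probe sets, which gave 18193 genes. The number of arrays limits the precision. Medians over all probe sets lay between 6.62 and 6.84 on the 9 arrays. The mean of 400 and the mean of 100 correlated across genes with r = 0.958, where genes are not independent replicates. Array 400-1 (pool of 400, replicate 1) stood apart, with a mean r of 0.787 to the other arrays of 400, against 0.917 among those 4. Its r with array 200-1 was 0.849. Array 100-2 had a mean r of 0.819 to the other arrays of 100. A further division ran through the deposited table: values of 400-1, 100-1 and 100-2 were written with up to 14 decimals (the long format), and those of the other 6 arrays with up to 9 (the short format). Among the pools of 200, array 200-1 was in the long format and the others in the short format. The sources used here do not say what this number format stands for, so it is treated as a batch of unknown origin. A gene was taken as above background on an array when its value, the median of its probe sets, exceeded the 95th percentile of olfactory and vomeronasal receptor genes on that array, receptors best known from the sensory neurons of the nose. That threshold lay between 8.79 and 9.61. Over all 18193 genes, 14920 were above it on no array of 400 or 100. Of the 74 genes named by rule below, 37 were above it on no array of 400 or 100, and 25 had no probe set above it on any of these arrays. Differences in such genes lie below the background and are given as differences in signal only.

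**Figure D1:**
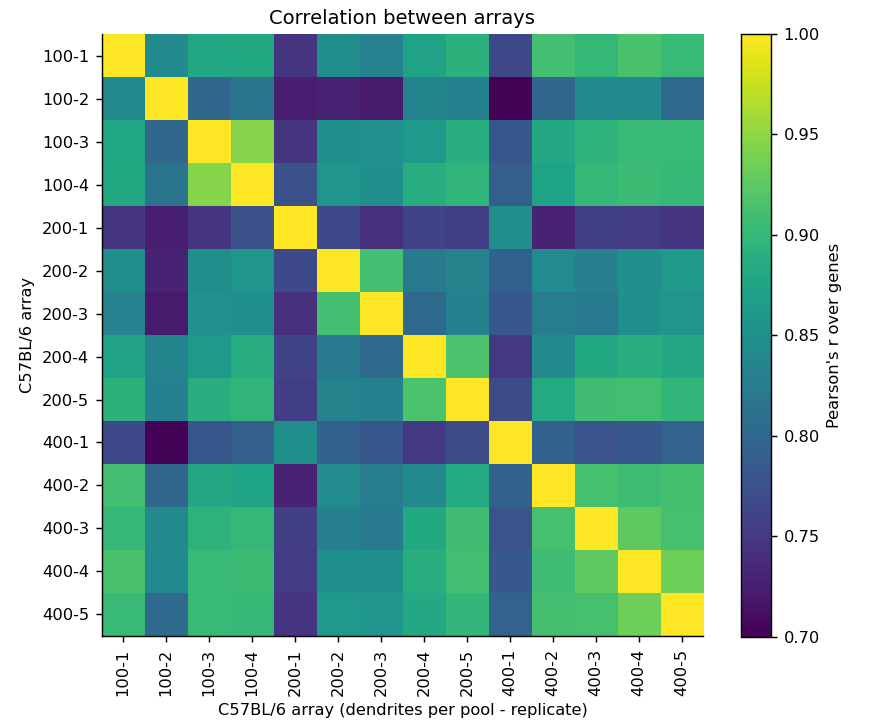
Pearson's r across 18193 genes between each pair of the 14 C57BL/6 arrays, labelled by dendrites per pool and replicate, on a colour scale from 0.7 to 1. The rows of 400-1, 200-1 and 100-2 are darker than the others, and 100-3 with 100-4 is the brightest pair at 0.945.

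No gene passed an adjusted p of 0.05 between pools of 400 and 100 in limma (0 of 18193 genes, 0%). The smallest adjusted p was 0.0532. At an unadjusted p under 0.05 there were 1246 genes (6.85%), of which 584 were higher in 400 (3.21%) and 662 lower (3.64%). This split moved with the scaling. After quantile normalisation 753 were higher and 519 lower, and after each array was scaled by its 10th to 90th percentile range 800 were higher and 509 lower. In 516 genes (2.84%) the 5 arrays of 400 did not overlap the 4 arrays of 100, with 218 higher in 400 (1.2%) and 298 lower (1.64%). The methods' t-test also called 0 genes after Benjamini-Hochberg adjustment, with 1227 at an unadjusted p under 0.05. The count of called genes was 7 without array 100-1, 1 without 400-3 and 0 without 400-1.

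The median difference over all genes was -0.03, with quartiles of -0.29 and 0.23. An absolute difference above 1 was seen in 550 genes (3.02%) and above 2 in 21 genes. The 95% interval of a gene's difference had a median half-width of 0.705. It lay wholly within 1 of 0 for 9044 genes (49.7%) and within 2 of 0 for 17546 genes (96.4%). For the remaining genes the interval reached past a difference of 1 log2 unit.

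**Figure D2:**
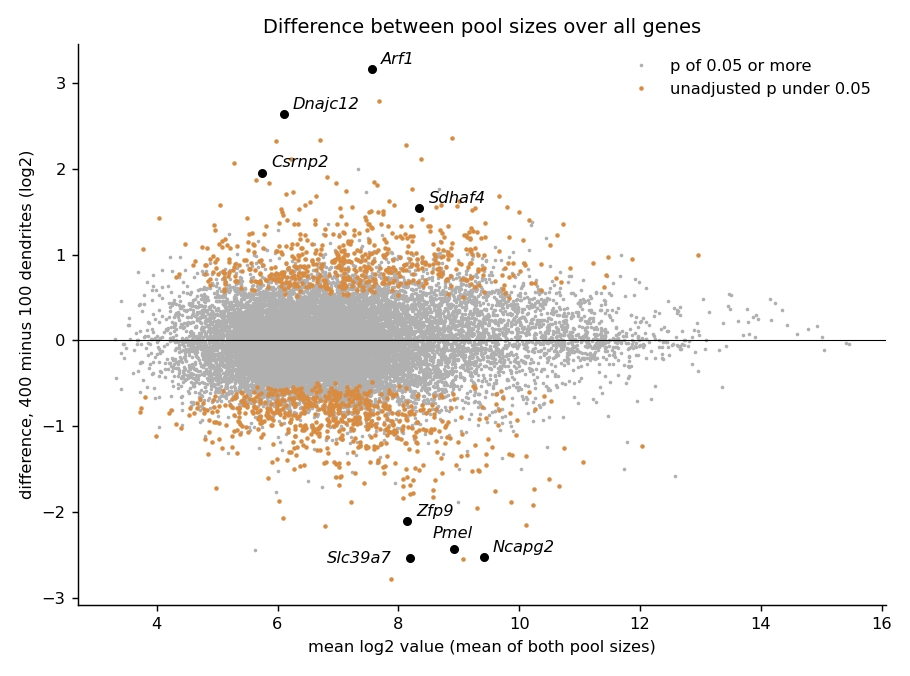
The difference of each of 18193 genes (400 minus 100 dendrites, log2) against its mean log2 value over both pool sizes, with genes at an unadjusted p under 0.05 in orange. The 8 named genes lie from -2.53 (Ncapg2 and Slc39a7) to 3.16 (Arf1), and none of them passed an adjusted p of 0.05.

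Among genes lower in 400, the smallest p belonged to Ncapg2, a subunit of the condensin II complex that compacts chromosomes. Its log2 values were 10.48, 10.39, 10.59 and 11.24 in the 4 arrays of 100, and 8.36, 7.63, 8.88, 8.15 and 7.71 in the 5 arrays of 400. The groups did not overlap, and the highest array of 400 lay more than 1 unit below the lowest of 100. The difference was -2.53 ± 0.31 (SE), with a limma adjusted p of 0.0532. It was above background on all 4 arrays of 100 and on none of 400. Over the alternative settings its adjusted p ran from 0.00652 with array weights to 0.563 with the replicate block. It was 0.0366 after quantile normalisation, 0.0402 after the percentile range scaling and 0.0225 with number format as a block. Left-out arrays gave 0.119 without 400-1, 0.149 without 100-2, 0.28 without 100-3 and 0.316 without 100-4. With dim genes left out it was 0.0127, but that filter used the mean of the same 9 arrays. Ncapg2 was above background only on arrays of 100, so the filtered value is no separate support. The 5 arrays of 200 averaged 7.94 ± 1.66 (SD), with 1 of them at 10.76 and the others between 6.39 and 7.71, so the pools of 200 did not form a step between the other sizes.

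Slc39a7 encodes a zinc transporter of the secretory pathway. It measured 8.25, 9.39, 10.29 and 9.89 in the pools of 100 and 6.83, 6.95, 7.07, 6.96 and 6.79 in the pools of 400, a difference of -2.53 ± 0.36 (SE; limma adjusted p = 0.112). Again the groups did not overlap, and the arrays of 400 lay close together (SD 0.11) while those of 100 were spread (SD 0.88). It was above background on 2 arrays of 100 and on none of 400. The 1 probe set of Slc39a7 is of a type that can match several transcripts, so its signal may be shared with other genes.

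Pmel, which forms the fibrils of pigment granules, measured 9.08, 9.84, 10.94 and 10.69 in 100 and 7.11, 7.52, 8.33, 7.73 and 7.87 in 400, a difference of -2.43 ± 0.39 (SE; limma adjusted p = 0.14). Zfp9, a zinc finger protein, measured 8.49, 9.17, 9.75 and 9.41 in 100 and 6.44, 7.11, 7.66, 7.43 and 6.83 in 400, a difference of -2.11 ± 0.33 (SE; limma adjusted p = 0.137). In neither gene did the groups overlap. Pmel was above background on all 4 arrays of 100, Zfp9 on 2 of them, and both on none of 400. The arrays of 200 spread across both groups, from 7.70 to 10.82 for Pmel and from 6.04 to 9.00 for Zfp9.

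The other genes with the smallest p among those lower in 400 also had groups without overlap. Gzmm, a granzyme of cytotoxic lymphocytes, differed by -1.43 (adjusted p = 0.207), and Bclaf1, a nuclear protein of transcription and RNA processing, by -1.19 (adjusted p = 0.294). Kyat3, a kynurenine aminotransferase, differed by -1.55 (adjusted p = 0.331). Mertk, a receptor kinase for the uptake of dying cells, differed by -1.47 (adjusted p = 0.336). Gzmm, Kyat3 and Mertk were above background on none of the 9 arrays. Of the 5 probe sets of Bclaf1, 1 separated the groups, at -1.29, and another pair were at -0.04 and 0.07. Opalin, a membrane protein of myelinating oligodendrocytes, was the 1 gene of 9010 with several probe sets (0.0111%) in which each probe set was lower on all arrays of 400. Its probe sets differed by -1.61 and -1.54, and the gene by -1.58 (adjusted p = 0.336). The gene value was above background on none of the 9 arrays, and 1 of its probe sets on 2 arrays of 100.

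Among genes higher in 400, the smallest p belonged to Csrnp2, a nuclear protein of the cysteine-serine-rich family. Its values were 5.09, 4.83, 4.11 and 5.07 in 100 and 6.57, 7.32, 6.64, 6.31 and 6.79 in 400, a difference of 1.96 ± 0.30 (SE; limma adjusted p = 0.133). The groups did not overlap, but Csrnp2 was above background on none of the 9 arrays, so the difference lies wholly below it. The arrays of 200 lay with those of 400, at 7.03 ± 0.42 (SD).

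Dnajc12, a co-chaperone of the Hsp40 family, measured 5.39, 4.25, 4.52 and 4.97 in 100 and 7.12, 8.16, 6.45, 6.66 and 8.74 in 400. The arrays of 400 were spread (SD 0.99) and lay above every array of 100. None of the 9 arrays had Dnajc12 above background. The difference was 2.64 ± 0.46 (SE; limma adjusted p = 0.214), and the arrays of 200 averaged 6.61 ± 0.40 (SD).

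Sdhaf4, an assembly factor of succinate dehydrogenase, measured 8.02, 7.58, 7.51 and 7.20 in 100 and 9.18, 9.59, 8.95, 8.66 and 9.23 in 400. Its difference was 1.54 ± 0.27 (SE; limma adjusted p = 0.214). Sdhaf4 was above background on 2 arrays of 400 and none of 100. The groups did not overlap, and here the arrays of 200, at 7.69 ± 0.59 (SD), lay with those of 100.

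Arf1, a small GTPase, recruits coat proteins to Golgi vesicles. It measured 6.54, 6.44, 5.64 and 5.29 in 100 and 7.97, 8.95, 8.50, 8.75 and 11.52 in 400, a difference of 3.16 ± 0.60 (SE; limma adjusted p = 0.285). All arrays of 400 lay above all arrays of 100, but array 400-5 stood far above the other arrays of 400. The gene value was above background on 2 arrays of 400 and none of 100. The probe sets of Arf1 disagreed: 1 differed by 3.17, 1 by 1.11 with overlapping groups and the last by 0.01. With the brightest probe set in place of the median, the difference of Arf1 was 1.11, from 11.39 in 100 to 12.50 in 400, above background on all 9 arrays.

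Of the remaining genes with the smallest p among those higher in 400, Tspyl3, a nucleosome assembly family member, differed by 1.84 (adjusted p = 0.271). It was the 1 gene with several probe sets (0.0111%) in which each probe set was higher on all arrays of 400, by 1.70 and 1.98. Mrpl2, a protein of the mitochondrial ribosome, differed by 1.56 (adjusted p = 0.285) and Pxylp1, a phosphatase of proteoglycan synthesis, by 1.5 (adjusted p = 0.281). Each probe set of Pxylp1 overlapped between the groups, at 0.09, 1.35 and 1.39. Faap20, of the Fanconi anaemia DNA repair complex, differed by 1.30 (adjusted p = 0.294). That difference was -0.02 with its brightest probe set, so the direction for Faap20 depended on how its 3 probe sets were joined. No probe set of Tspyl3 or Faap20 was above background on any of the 9 arrays. Mrpl2 was above it on 3 arrays of 400 and Pxylp1 on 1, and neither on any of 100.

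**Figure D3:**
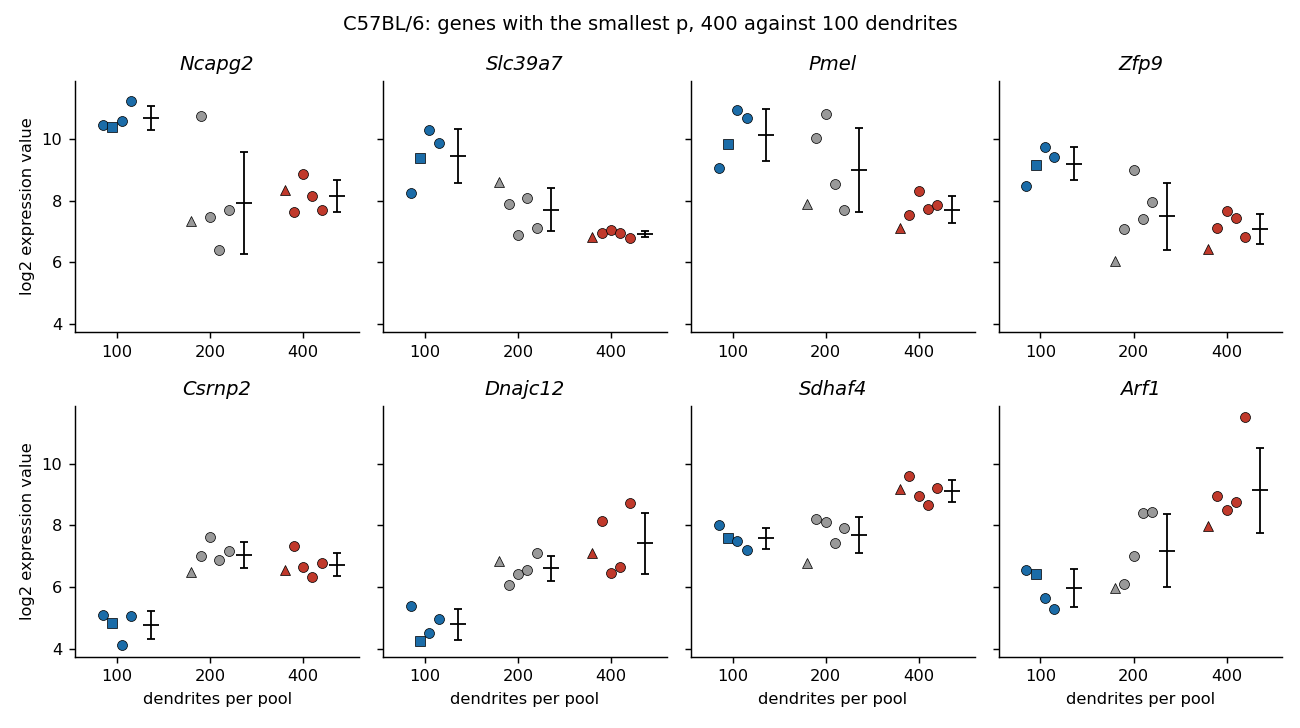
Log2 expression values of 8 genes on each C57BL/6 array by pool size (100 blue, 200 grey, 400 red), with the mean ± SD as a black bar beside each group. Triangles mark 400-1 and 200-1 and the square marks 100-2. Groups of 100 and 400 do not overlap in any of the 8 panels, and the pools of 200 lie with 400 for Csrnp2, with 100 for Sdhaf4 and across both for Pmel.

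Since number format divided the arrays, the comparison was repeated within it. With format as a block, 10 genes were called (0.055%), 5 higher in 400 and 5 lower, and 1990 (10.9%) had an unadjusted p under 0.05. Pmel (-2.75, adjusted p = 0.0105), Slc39a7 (-2.76, 0.0145), Zfp9 (-2.35, 0.0145) and Ncapg2 (-2.57, 0.0225) were lower in 400 in that fit, along with Cdc123 (-2.70, 0.0268), an assembly factor of translation initiation factor eIF2. The 5 higher ones were F2r, the thrombin receptor (2.50, 0.0105), Prox1, a transcription factor of dentate granule neurons (1.81, 0.0201), Naf1, a factor of ribonucleoprotein assembly (3.20, 0.0225), Tspyl3 (2.07, 0.0282) and the zinc finger gene Zfp775 (2.73, 0.0461). F2r, Naf1, Cdc123 and Zfp775 lie outside the rule for named genes and were chosen after their values were seen. No probe set of Prox1, Tspyl3 or Zfp775 was above background on any of the 9 arrays. Prox1 turned to -0.28 with its brightest probe set over the 9 arrays.

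Within the short format alone, 4 arrays of 400 against 2 of 100, limma called 252 genes (1.39%), 123 higher and 129 lower in 400, including the 10 above, and 2663 genes (14.6%) had an unadjusted p under 0.05. In the long format, 1 array of 400 against 2 of 100 gave 0 called genes (0%) with 2632 at an unadjusted p under 0.05 (14.5%), and there the single array of 400 was assumed to vary like the pools of 100. Of the 71 receptor genes that set the background, 1 was called by limma in the short format and 9 had an unadjusted p under 0.05 there. Of the 252 genes, 101 (40.1%) had the same direction in the long format, and the share over all genes is not given here. Signed by the short format, the median difference of the 252 genes was 1.78 in the short format and -0.34 in the long format. Arrays 100-3 and 100-4, the 2 of 100 in the short format, correlated at 0.945 and had a median SD between them of 0.21, against 0.356 for the 4 arrays of 400. A median SD over 2 arrays runs lower than over 4, so these SDs are not directly comparable. The part of the closeness of 100-3 and 100-4 in the 252 calls was not tested. Genes with the smallest p over 9 arrays had groups without overlap, so their direction within each format was fixed in advance and only the sizes are given. Ncapg2 differed by -2.07 in the long format and -2.82 in the short format, and Slc39a7 by -1.99 and -3.15. Csrnp2 differed by 1.61 and 2.18, and Arf1 by 1.48 and 3.97.

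The labelled cell type was set against marker lists. Above background is again judged on the median of a gene's probe sets. Of all 18193 genes, 728 were above background on all 9 arrays, as was 1 of the 71 receptor genes that set it. Whether any marker list departed from the share of all genes was not tested. The counts below therefore do not show which cell types were present. Of 26 pyramidal neuron markers, 1 was above background on all 9 arrays, the calmodulin-binding postsynaptic protein gene Nrgn. Neurod6 exceeded it on 4 of 5 arrays of 400 and 2 of 4 arrays of 100, whereas the kinase gene Camk2a did so on none, with any of its probe sets. Of 21 GABAergic interneuron markers, Gad1, the enzyme of GABA synthesis, and Calb2, the calcium buffer calretinin, exceeded it on all 9 arrays. None of 21 astrocyte markers and none of 20 oligodendrocyte lineage markers did so on all 9. Of 20 microglia markers 1 did (Tyrobp), and of 18 endothelial and fibroblast markers 0 did, although the vascular receptor gene Kdr exceeded it on 4 arrays of each size. Siglech, a microglia gene, exceeded background on 3 arrays of 400 and 4 of 100. A probe set exceeded background on all 9 arrays for the astrocyte markers Gja1, Sox9 and Clu and the microglia markers Laptm5 and Cx3cr1. The same held for Pdgfrb of the endothelial and fibroblast list. It also held for Neurod2 and Ociad2 of the pyramidal list and Lhx6, Nos1 and Tac1 of the interneuron list. These genes were named after their values were seen.

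The marker lists differed little between the pool sizes. The mean of the pyramidal markers was 7.42 ± 0.14 (SD, n = 5) in 400 and 7.30 ± 0.09 (SD, n = 4) in 100, and that of the interneuron markers 7.76 ± 0.21 and 7.67 ± 0.30. The astrocyte mean was 6.86 ± 0.28 and 6.94 ± 0.23, the oligodendrocyte mean 6.40 ± 0.12 and 6.49 ± 0.17, the microglia mean 6.60 ± 0.20 and 6.66 ± 0.25, and the endothelial and fibroblast mean 6.74 ± 0.22 and 6.88 ± 0.12. Each of these differences was smaller than the larger SD of its pair. No marker was called. At an unadjusted p under 0.05 there were 3 of 26 pyramidal markers higher in 400, 2 interneuron markers higher and 1 lower, 2 oligodendrocyte markers lower (Opalin and Mog) and 0 astrocyte, microglia or endothelial markers. Of all genes 3.21% were higher and 3.64% lower at that p. The 3 listed as pyramidal include Prox1, a transcription factor of dentate granule neurons rather than pyramidal ones, with no probe set above background. The interneuron list had a median difference of 0.04 over 9 arrays and 0.47 in the short format. Among its members Dlx2, a homeobox factor of interneuron precursors, differed by 1.13 (adjusted p = 0.505), and Crhbp, which binds corticotropin-releasing hormone, by 0.72 (adjusted p = 0.583). Neither was above background on any of the 9 arrays.

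Of the transcripts that dendrites are best known for, none of 32 had an unadjusted p under 0.05, beside 6.85% of all genes. Their median difference was 0.06 against -0.03 over all genes. Actb, Eef1a1 and Nrgn were above background on all 9 arrays, whereas Camk2a, Arc and Shank1 had no probe set above it on any of them. The medians of Map2 and Dlg4 were also above it on none, although each had a probe set above it on all 9. The AMPA receptor subunit Gria2 had the smallest p of this list. It measured 9.77, 8.90, 9.85 and 9.75 in 100 and 8.58, 8.85, 8.95, 9.21 and 9.26 in 400. The groups overlapped through array 100-2, and the difference was -0.60 ± 0.28 (SE; limma adjusted p = 0.722). Of 22 glutamate receptor genes, 8 were higher in 400, beside 46.8% of all genes, and 14 lower, with a median of -0.10. Grik4, a kainate receptor subunit of CA3 neurons, was the 1 member with an unadjusted p under 0.05, at 0.76 (adjusted p = 0.697). Neither Grik4 nor Gabrr1 was above background on any of the 9 arrays. Of 16 GABA receptor genes, 13 were higher in 400, beside 46.8% of all genes, and 12 were above background on no array. Their median was 0.26 over 9 arrays and 0.14 without 400-1, with Gabrr1 first at 0.70 (adjusted p = 0.682). The postsynaptic density list had 0 of 35 genes with an unadjusted p under 0.05 and a median of 0.06.

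The machinery for making protein showed small positive medians. The 45 cytosolic ribosomal protein genes had a median of 0.07, and 11 of them were above background on all 9 arrays. None had an unadjusted p under 0.05, beside 6.85% of all genes. The median of this list was 0.17 without array 400-1 and -0.12 in the short format. The 44 translation factor genes had a median of 0.24, with 3 higher and 1 lower at an unadjusted p under 0.05, beside 3.21% and 3.64% of all genes. Their mean was 7.95 ± 0.24 (SD, n = 5) in 400 and 7.71 ± 0.14 (SD, n = 4) in 100. Array 400-1 was at 7.52 on this mean and the other 4 arrays of 400 were between 8.04 and 8.08, above every array of 100. Eef2k, the kinase that slows elongation, differed by 0.81 (adjusted p = 0.645), with no probe set above background on any array. The eIF2 subunit Eif2s3x differed by -1.04 (adjusted p = 0.671), and by 0.04 with its brightest probe set.

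Of 41 genes for proteins that carry or regulate RNA in dendrites, 4 were higher and 1 lower in 400 at an unadjusted p under 0.05, beside 3.21% higher and 3.64% lower of all genes, and the median was 0.11. Stau2, a double-stranded RNA-binding protein of dendritic RNA granules, measured 7.49, 6.31, 7.50 and 7.24 in 100 and 8.60, 8.30, 7.83, 7.98 and 8.25 in 400. Every array of 400 lay above every array of 100, with all gene values below background. A probe set of Stau2 was above it on all 5 arrays of 400 and on 2 of 100. Of its 3 probe sets 1 separated the groups, at 1.33, and the brightest differed by 0.80 with overlap. The difference was 1.06 ± 0.30 (SE; limma adjusted p = 0.466). Cpeb3, a regulator of translation from cytoplasmic polyadenylation elements, differed by 0.94 (adjusted p = 0.663) with overlapping groups.

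Cytoskeletal lists had medians among the most positive of those examined. The 30 genes of microtubules and neurofilaments had a median of 0.34, with 22 higher in 400, beside 46.8% of all genes. Their list mean was 9.39 ± 0.08 (SD, n = 5) in 400 against 9.13 ± 0.15 (SD, n = 4) in 100. The arrays of 400 were between 9.28 and 9.47 on that mean and those of 100 between 8.91 (array 100-2) and 9.23. In the brightest of 10 signal bins, described below, 56.5% of genes were higher in 400, and its median difference turned on array 100-2. The list was not compared with genes of equal signal. A pair of microtubule destabilisers led the list, Stmn1 at 0.76 (adjusted p = 0.671) and Stmn3 at 0.62 (adjusted p = 0.722). The 38 actin genes had a median of 0.28 over 9 arrays, 0.30 without 400-1 and 0.11 in the short format, with 5 higher and 0 lower at an unadjusted p under 0.05, beside 3.21% and 3.64% of all genes. Dbnl, which links actin to endocytosis, measured 5.98, 5.90, 6.52 and 6.29 in 100 and 7.40, 6.90, 7.09, 7.15 and 7.89 in 400. All 9 values were below background. The groups did not overlap, and the difference was 1.11 ± 0.27 (SE; limma adjusted p = 0.365). Cdc42, a GTPase of actin assembly in spines, measured 7.31, 7.76, 8.29 and 8.21 in 100 and 9.98, 9.05, 9.05, 8.78 and 8.97 in 400. These groups did not overlap either, and the difference was 1.27 ± 0.31 (SE; limma adjusted p = 0.38). Of the 4 probe sets of Cdc42, 1 separated the groups, and the brightest, at 12.16 in 100 and 12.68 in 400, differed by 0.52 with overlap. Of 35 motor protein genes 4 were higher and 2 lower at an unadjusted p under 0.05, beside 3.21% and 3.64% of all genes. Their median was 0.09, and 0.23 without 400-1 and 0.01 in the short format. Dynlt3, a dynein light chain, differed by 0.84 (adjusted p = 0.663) and the kinesin gene Kif1b by -0.71 (adjusted p = 0.674), which was 0.17 with its brightest probe set.

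**Figure D4:**
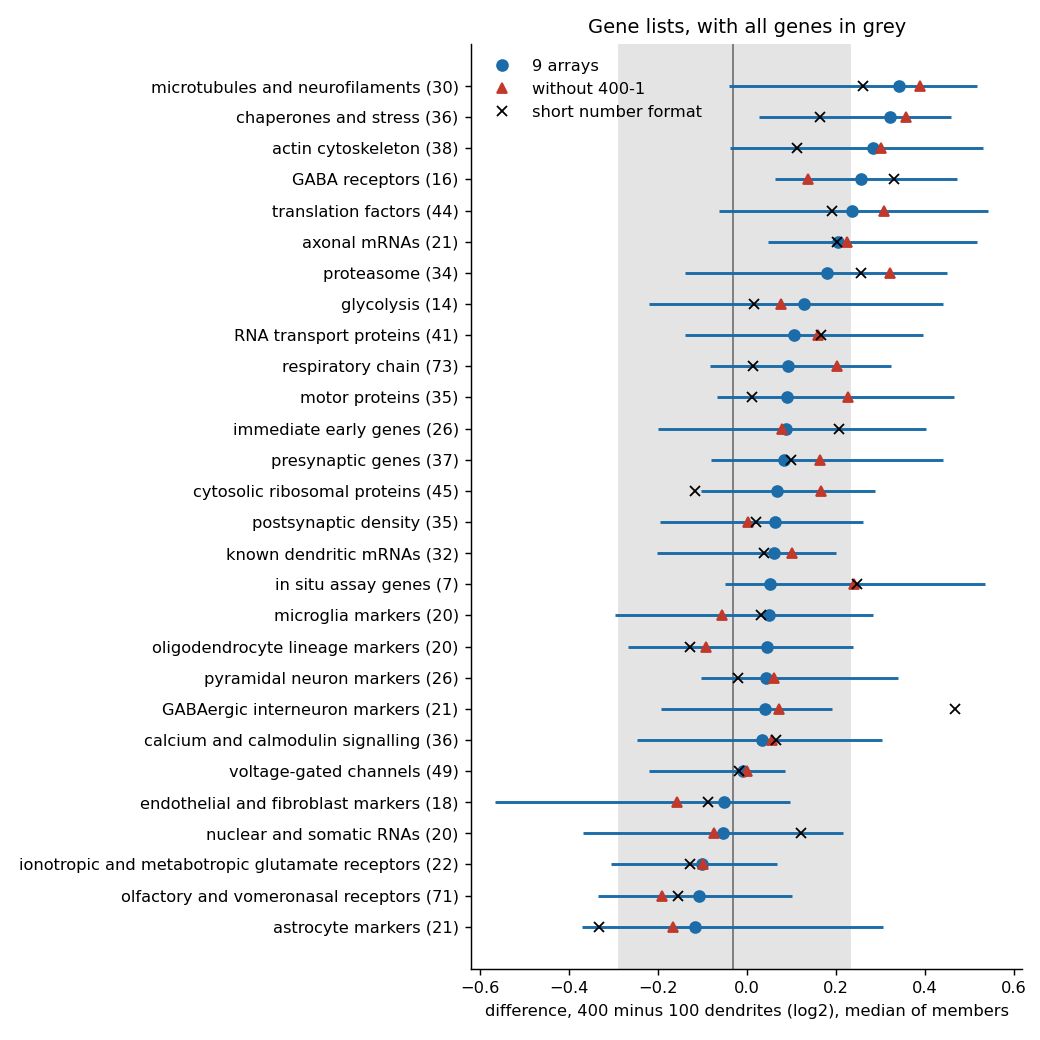
Median difference of each of 28 gene lists (400 minus 100 dendrites, log2; number of genes in brackets) over the 9 arrays (circles, with the quartiles of members as lines), without array 400-1 (triangles) and in the short number format (crosses). The grey band spans the quartiles of all 18193 genes, -0.29 to 0.23, and 5 of the circles lie to its right.

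Among presynaptic genes, 3 of 37 were higher in 400 at an unadjusted p under 0.05 and 0 lower, beside 3.21% and 3.64% of all genes. The median was 0.08, and 0.16 without 400-1. Snap25, a SNARE protein of vesicle fusion, measured 7.32, 6.66, 6.57 and 6.79 in 100 and 8.44, 8.38, 7.46, 7.79 and 8.52 in 400. No overlap was seen, with the lowest array of 400 close to the highest of 100. The difference was 1.28 ± 0.30 (SE; limma adjusted p = 0.336). The gene value of Snap25 was above background on none of the 9 arrays, and 1 of its probe sets on 2 arrays of 400. Rab3a, a GTPase of synaptic vesicles, differed by 0.60 (adjusted p = 0.671), with gene values also without overlap. Both of its probe sets overlapped between the groups, at 0.70 and 0.50. The 21 axonal transcripts had a median of 0.21 and 0 members with an unadjusted p under 0.05, beside 6.85% of all genes. The microtubule protein Mapt differed by 0.56 (adjusted p = 0.722) and the actin-severing protein Cfl1 by 0.55 (adjusted p = 0.731). The list mean of these axonal transcripts was 8.32 ± 0.09 (SD, n = 5) in 400 and 8.08 ± 0.11 (SD, n = 4) in 100. The lowest array of 400, at 8.21, lay just above the highest of 100, at 8.20. Whether pools of the 2 sizes held different amounts of axonal RNA was not tested.

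Of the 36 calcium and calmodulin signalling genes, 1 was higher and 2 lower at an unadjusted p under 0.05, beside 3.21% and 3.64% of all genes. The calcineurin subunit Ppp3ca differed by 0.83 (adjusted p = 0.632) and the calcium pump Atp2b2 by -0.74 (adjusted p = 0.703). Voltage-gated channels, 49 genes, had a median of -0.01, with Cacna1b, a presynaptic calcium channel, lowest in p at -0.65 (adjusted p = 0.682). Of 26 immediate early genes, Egr1 was the 1 with an unadjusted p under 0.05, beside 6.85% of all genes. It measured 8.60, 7.95, 8.58 and 8.16 in 100 and 9.49, 9.41, 8.85, 9.00 and 8.81 in 400. The groups did not overlap, and the difference was 0.79 ± 0.26 (SE; limma adjusted p = 0.574). Egr1 was above background on 1 array of 400 and none of 100.

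Respiratory chain transcripts, nuclear genes for the complexes of mitochondrial respiration, were among the brightest. Of 73 members, 16 were above background on all 9 arrays, 2 were higher in 400 at an unadjusted p under 0.05 and 0 lower, beside 3.21% and 3.64% of all genes. The median was 0.09 over 9 arrays, 0.20 without 400-1, 0.01 in the short format and -0.04 with format as a block. Ndufa10, a complex I subunit, differed by 1.07 (adjusted p = 0.543) and Cox7a2l, a supercomplex assembly factor, by 0.64 (adjusted p = 0.716). The 36 chaperone and stress genes had a median of 0.32, which was 0.36 without 400-1 and 0.16 in the short format. Within it the inducible chaperone Hspa1a differed by 1.48 (adjusted p = 0.505) and the stress regulator Ddit4 by 1.33 (adjusted p = 0.5). Of 14 glycolysis genes, 0 had an unadjusted p under 0.05, beside 6.85% of all genes.

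The proteasome list held members that differed in opposite directions. Psmd1, a subunit of the regulatory particle, measured 8.09, 8.14, 9.14 and 8.85 in 100 and 10.03, 9.47, 9.54, 10.25 and 10.03 in 400, a difference of 1.31 ± 0.30 (SE; limma adjusted p = 0.336). Psmb2, a subunit of the catalytic core, measured 8.0, 8.78, 8.96 and 9.77 in 100 and 6.51, 7.10, 7.80, 7.78 and 7.71 in 400, a difference of -1.50 ± 0.39 (SE; limma adjusted p = 0.432). In both, the groups did not overlap. Over the 34 members 4 were higher and 2 lower at an unadjusted p under 0.05, beside 3.21% and 3.64% of all genes. The median was 0.18 over 9 arrays, 0.32 without 400-1 and 0.06 with format as a block.

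Nuclear and somatic RNAs, chosen as transcripts that stay near the cell body, had 0 of 20 genes higher and 4 lower in 400 at an unadjusted p under 0.05, beside 3.64% of all genes lower. Their median was -0.05, and 0.12 in the short format. Miat, a nuclear long noncoding RNA, measured 10.54, 11.77, 9.66 and 9.98 in 100 and 9.35, 7.76, 8.15, 9.47 and 8.91 in 400, a difference of -1.76 ± 0.47 (SE; limma adjusted p = 0.438). The noncoding gene Snhg11 measured 10.40, 9.76, 9.63 and 9.82 in 100 and 8.89, 8.57, 8.58, 9.39 and 9.54 in 400, a difference of -0.91 ± 0.29 (SE; limma adjusted p = 0.549). The gene values of both were lower on all arrays of 400 than on all arrays of 100. The 2 probe sets of Snhg11 disagreed: 1 differed by -1.70 without overlap, and the brighter by -0.12 with overlap. Both probe sets of Miat overlapped between the groups, at -1.65 and -1.87. Whether the smaller pools held more RNA of the soma was not tested.

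Of the genes the study also stained by in situ hybridisation, 7 could be followed here. None had an unadjusted p under 0.05, beside 6.85% of all genes. The RNA-binding protein gene Hnrnpk differed by 0.75 (adjusted p = 0.756) and the histone variant gene H2az1 by 0.77 (adjusted p = 0.775). Commd3 differed by 0.32 (adjusted p = 0.811), Zfp410 by -0.32 (adjusted p = 0.866) and Clasrp, a splicing regulator, by -0.14 (adjusted p = 0.942). Olfm1, a secreted glycoprotein of synapses, and the ribosomal protein gene Rps6 differed by 0.05 and 0.04. The sign of Commd3, Clasrp, Olfm1, Hnrnpk and Rps6 changed under at least 1 alternative setting.

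Pool size was not accompanied by a detectable difference in how many genes exceeded background. The share was 9.90% ± 1.93 (SD, n = 5) in pools of 400 and 9.24% ± 1.44 (SD, n = 4) in pools of 100, a difference of 0.664 percentage points (two-sided exact permutation test over all ways to choose 5 of 9 arrays, p = 0.611, adjusted p = 0.863 over 5 measures). The smallest p this design allows is 0.00794. Single arrays ran from 7.62% to 12.8% in 400 and from 7.34% to 10.4% in 100. The receptor genes that set the background had medians of 5.98 ± 0.31 (SD) in 400 and 6.00 ± 0.25 in 100 (exact permutation test, p = 0.873, adjusted p = 0.873).

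Above background on all 9 arrays were 728 genes, on all arrays of 400 931 genes, and on all arrays of 100 921 genes. There were 4 genes above it on all 5 arrays of 400 and on none of 100: the neuron navigator gene Nav3, the phosphatase gene Ppm1g, the fatty acid elongation gene Hacd1 and Gm17733. In the opposite direction there were 3, Ncapg2, Pmel and the interneuron factor Lhx6. These genes are named by that pattern and, apart from Ncapg2 and Pmel, were chosen after their values were seen. Lhx6 ran from 9.25 to 9.74 in 100 and from 8.63 to 9.11 in 400, so its groups lay close on either side of the background. The pattern is one of the gene's median: Lhx6 had a probe set above background on all 9 arrays, Nav3 on all 4 arrays of 100 and Hacd1 on 2 of them.

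The distance between the 10th and 90th percentile of gene values, a measure of how far an array resolves high from low signal, was 3.91 ± 0.08 (SD, n = 5) in 400 and 3.81 ± 0.10 (SD, n = 4) in 100 (exact permutation test, p = 0.143, adjusted p = 0.397). Without array 100-2, which had the smallest range at 3.66, the arrays of 100 were between 3.85 and 3.87. Array control probe sets at the 3′ and 5′ ends of a transcript report how far amplification shortened the RNA. For Gapdh the 3′ minus 5′ difference was 3.28 ± 0.11 (SD) in 400 and 3.13 ± 0.17 in 100 (exact permutation test, p = 0.159, adjusted p = 0.397). For Actb it was 4.29 ± 1.57 in 400 and 3.88 ± 0.46 in 100 (exact permutation test, p = 0.69, adjusted p = 0.863). Array 400-1 was at 1.65 on the Actb measure, with the other arrays of 400 between 4.33 and 5.56. The Actb difference of 0.403 between the sizes was 1.06 without 400-1 (exact permutation test, p = 0.0857), 1.17 in the short format and 0.084 without 400-2.

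Larger pools did not show a smaller spread between replicates over all arrays. The median SD of a gene was 0.432 among the pools of 100, 0.468 among those of 400 and 0.544 among those of 200. Of all genes, 45.5% had a larger SD in 100 than in 400. These values turned on single arrays: the median SD was 0.356 for 400 without 400-1, and 61.0% of genes then had the larger SD in 100. It was 0.338 for 100 without 100-2, and with both arrays left out the share was 47.2%. Genes with an SD above 1 made up 6.51% in 100 and 5.89% in 400, the latter 1.93% without 400-1. The order of the 2 sizes in spread thus changed with which of these arrays was counted, and genes are not independent replicates of it. A median SD over fewer arrays also runs lower. The pools of 100 had 4 arrays against 5 of 400, and 3 against 4 with both left out, so those values are not directly comparable. Without 400-1 alone there were 4 arrays of each size.

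The difference was also followed along signal, with genes put into 10 bins of equal size by their mean in the pools of 200, which the comparison does not use. The median difference went from -0.08 in the dimmest bin to 0.05 in the brightest, and the share of genes higher in 400 from 42.3% to 56.5%. After quantile normalisation the bin medians lay between -0.01 and 0.05. These values turned on array 100-2: without it the dimmest bin was at 0.036 and the brightest at -0.015. In the short format the dimmest bin was at -0.001 and the brightest at -0.03. The median SD of 400 exceeded that of 100 in 9 of the 10 bins with all arrays (5 of 400 against 4 of 100). It was below that of 100 in every bin without 400-1 (4 arrays of each size).

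**Figure D5:**
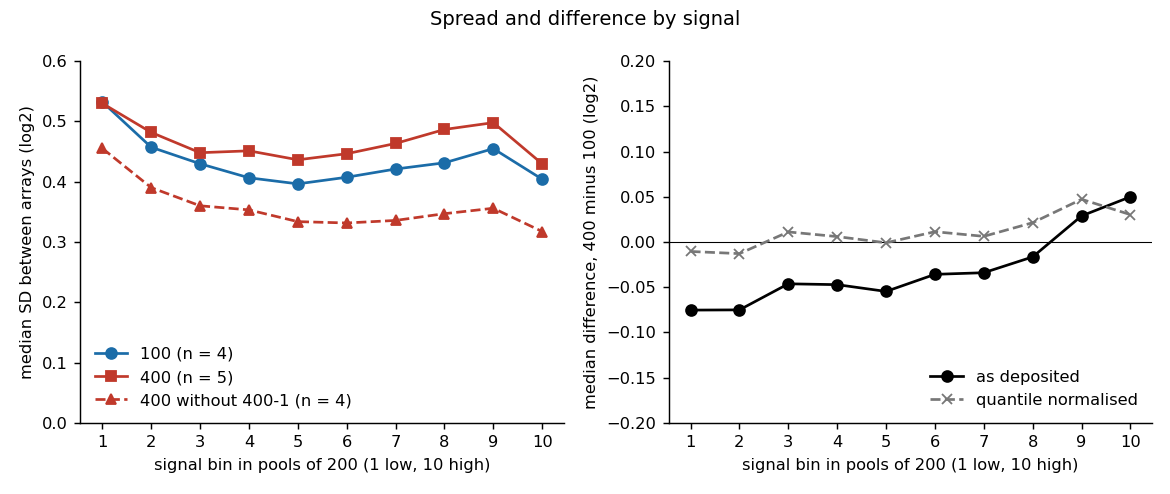
Left, the median SD between arrays (log2) of pools of 100 (blue) and 400 (red; dashed without 400-1) in 10 bins of signal set in the pools of 200. Right, the median difference in each bin (400 minus 100 dendrites, log2) as deposited (black) and after quantile normalisation (grey), which stays within 0.08 of 0.

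Balb/c pools of 400 and 100 dendrites, with 2 arrays of each size, gave the same contrast in another strain. All of these Balb/c arrays were in the long number format, as were 400-1, 100-1 and 100-2 of C57BL/6, so strain and format are partly mixed. With format as a block the interaction had 0 calls in limma, with 991 of 18193 genes at an unadjusted p under 0.05. The difference between the strains' contrasts was tested as an interaction in limma: 0 genes were called (0%), 854 had an unadjusted p under 0.05 (4.69%), and the smallest adjusted p was 0.286. Ncapg2 was 7.63 in Balb/c pools of 100 and 10.27 in those of 400, a difference of 2.64 against -2.53 in C57BL/6 (interaction adjusted p = 0.402). Slc39a7 was also of opposite sign, at 1.12 in Balb/c (interaction adjusted p = 0.402). Sdhaf4 differed by 2.05 in Balb/c and 1.54 in C57BL/6, and Pmel by -1.36 and -2.43. Csrnp2 differed by 0.59 in Balb/c, and Arf1 by -0.27 against 3.16 in C57BL/6. The count of interaction calls was 100 without Balb/c array 100-1, 161 without Balb/c 100-2, 3 without Balb/c 400-2, 1 without C57BL/6 400-1 and 0 without each of the other arrays. Leaving out a Balb/c array leaves 1 array of that size, which is then assumed to vary like the other groups.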

How the data were processed

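Amplified RNA from 19 dendrite pools had been hybridised to Affymetrix mouse genome arrays. The authors deposited log2 expression values per probe set, and the submitters' processing notes name RMA 2.0. Scanner signals were not used here, so the background correction could not be repeated. Of 45101 probe sets, 64 were array controls, 34945 carried 1 gene symbol, 932 several and 9160 none. Symbols came from the platform annotation, and 34741 probe sets (99.4%) matched RefSeq (GRCm38.p6) by gene ID. Probe sets of 1 symbol were joined to a gene by their median. Pools of 400 and 100 were compared by limma 3.58.1 in R 4.3.3, using lmFit and eBayes, and Benjamini-Hochberg adjustment over 18193 genes at an adjusted p of 0.05, and the study's threshold of 0.001 was also applied (0 genes). Measures per array were compared with two-sided exact permutation tests. Groups came from the sample titles. The members and gene lists were chosen with earlier results of these data known, and the lists were given no test.

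Genes were named by a rule that took, per direction, the 8 of lowest p and those with every probe set separating the pool sizes. It further took the lowest-p members of every list, in situ assay genes and Actb. Gapdh was also in the rule but had no gene value, so only its control probe sets were used. Alternatives were other array scalings, probe set summaries, a filter on dim genes, number format as a block or split, replicate number as a block, all 14 C57BL/6 arrays, other limma settings, the methods' t-test, probe sets in place of genes, and each array left out in turn. The fits were tested on simulated data. Leaving out arrays 400-1 and 100-2 together was chosen after seeing the data.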

Additional observations from a re-analysis of the deposited data

Results flagged for a closer look

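Values of single arrays that stood far from the rest of their pool size were sought in 214 groups with Dixon's criterion, which chance meets in about 5% of groups. It was met in 18 groups (8.41%), of which 8 concerned array 100-2 and 5 array 400-1.

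In array 100-2 the glycolytic gene Pgam1 was at 11.38 (other pools of 100 between 12.47 and 12.60), Hnrnpk at 8.76 (10.05 to 10.17), Olfm1 at 9.61 (10.63 to 10.74), Gria2 at 8.90 (9.75 to 9.85) and Rpl27 at 6.62 (7.87 to 7.95). The same array was above the other pools of 100 in Eef2k at 6.28 (5.67 to 5.71) and Gadd45b at 6.89 (6.20 to 6.25). Its 10th to 90th percentile range was 3.66, against 3.85 to 3.87.

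Array 400-1 was at 7.52 for the mean of translation factors (8.04 to 8.08 in the other pools of 400), at 6.58 for the mean and 6.52 for the median of olfactory and vomeronasal receptor genes (6.02 to 6.11 and 5.75 to 5.94), at 9.98 for Cdc42 (8.78 to 9.05) and at 7.71 for Prox1 (6.05 to 6.36). Array 400-5 was at 11.52 for Arf1 (7.97 to 8.95) and at 12.38 for Stmn1 (11.65 to 11.68). Array 100-1 was at 5.81 for the synaptic exchange factor Kalrn (7.16 to 7.37) and at 9.16 for Kif1b (8.23 to 8.36), and array 100-4 at 9.03 for Commd3 (8.73 to 8.76).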

How the results depend on the processing

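The count of genes called between pools of 400 and 100 was 0 as reported and 1 after quantile normalisation, after percentile range scaling and with dim genes left out (Ncapg2 each time). It was 10 with number format as a block, 252 within the short format and 42 with array weights, and between 0 and 7 with each array left out in turn. Genes with an unadjusted p under 0.05 numbered 1246 as reported, 1990 with format as a block, 2632 in the long format, 2663 in the short format, 2340 with array weights and 974 to 1552 with arrays left out. The interaction with strain had 0 calls as reported and 0 to 161 with arrays left out. Replicate numbers did not pair the pools: same-numbered pools of 400 and 100 had deviations correlated between -0.13 and -0.06. The fit with the replicate block called 0 genes, with 906 at an unadjusted p under 0.05, and the interaction 0 with 538. No cause of these changes was tested.

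The difference in genes above background was -0.218 percentage points with probe sets, and -0.066 to 1.23 with arrays left out. The difference in 10th to 90th percentile range was 0.0498 to 0.126 with arrays left out (without 400-3, exact permutation p = 0.0286). The difference in Gapdh 3' minus 5' was 0.0895 to 0.218 (without 100-3, exact permutation p = 0.0357). The difference in Actb 3' minus 5' was 0.084 to 1.06 with arrays left out and 1.17 in the short format. The receptor median differed by 0.0265 after quantile normalisation and by -0.164 to 0.0821 with arrays left out. The median SD in the short format was 0.21 for 100 (2 arrays) and 0.356 for 400 (4 arrays), which differ in array number and are not directly comparable. With arrays left out it was 0.338 to 0.445 for 100 and 0.356 to 0.481 for 400.

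Of 74 named genes, 14 changed direction in at least 1 alternative and none of the 74 had been called. With the brightest probe set Aqp4 was at -0.38, Commd3 at -0.022, Eif2s3x at 0.043, Faap20 at -0.021, Kalrn at 0.065, Kif1b at 0.17 and Prox1 at -0.28. In the long format Grik4 was at -0.32, Hnrnpk at -0.014, Rps6 at -0.087 and Olfm1 at -0.42. In the short format Clasrp was at 0.25, Siglech at 0.11 and Olfm1 at -0.037. With format as a block Clasrp was at 0.016 and Olfm1 at -0.17, and with array weights Clasrp was at 0.091. With the replicate block Olfm1 was at -0.11. Without both 400-1 and 100-2, Actb was at -0.041 and Olfm1 at -0.025. With arrays left out in turn, Actb was between -0.089 and 0.31, Clasrp between -0.30 and 0.030, Olfm1 between -0.21 and 0.24, and Rps6 between -0.20 and 0.33.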
